A study of Mus musculus with 10 samples.

Results

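Chemokines are small secreted proteins that guide the movement of leukocytes, and their receptors are G protein-coupled receptors on the cells that follow them. The gene family described here was chosen by symbol alone. It took every probe set with a single gene symbol that named a chemokine ligand (Ccl, Cxcl, Cx3cl or Xcl), a signalling receptor (Ccr, Cxcr, Cx3cr or Xcr) or an atypical receptor (Ackr) with its number. This gave 54 genes of the 29766 tested, which were 35 ligands, 17 signalling receptors and the atypical receptors Ackr1 and Ackr4. Each of the 54 was measured by 1 probe set.

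The arrays measured total RNA of the cochlea, the part of the inner ear that hears, from CBA/CaJ mice of 6 months with normal hearing. This strain loses its hearing late in life. Every mouse was housed singly. In the 5 samples called runners the cage held a running wheel, and in the 5 samples called controls it did not. The labels give neither a distance run nor whether an array stands for 1 animal, so the p-values reflect the spread among these arrays, part of which may be technical.

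Ligands are grouped by the spacing of their first cysteines into CC, CXC, CX3C and XC families, and each family has receptors of its own. Some, such as Cxcl12, are made all the time and hold or place cells in marrow and lymphoid organs, while others, such as Cxcl1 or Ccl2, are switched on by inflammation through NF-kappaB or interferon. Atypical receptors bind chemokines without the usual G protein signal and clear or carry them. In the cochlea the family is known mainly for the fractalkine receptor Cx3cr1 on resident macrophages and for the entry of blood leukocytes after injury.

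Values are log2 expression, so a difference of 1 is a doubling of signal, and differences are runner minus control with the moderated standard error of limma. Probes differ in how brightly they bind, so a level is compared between arrays and not between genes. The median over all genes tested lay between 5.35 and 5.43 on the 10 arrays, and the 54 genes had mean levels from 2.69 to 8.55. Correlations between arrays over all genes lay between 0.991 and 0.997, and no pair was identical. Genes of other tissues were measured beside those of the cochlea. The mean of 7 hair cell genes lay between 4.83 and 5.28 on the 10 arrays, that of 11 neutrophil genes between 9.03 and 9.58 and that of 5 skeletal muscle genes between 8.52 and 9.53. The mean of 5 brain genes lay between 7.55 and 7.96. In bulk tissue fewer cells of a type and less RNA per cell cannot be told apart.

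No gene of the family passed an adjusted p under 0.05 (Benjamini-Hochberg over all genes in limma, smallest adjusted p = 0.279), where 0.00672% of all genes did. At an unadjusted p under 0.05 there were 4 of 54, or 7.41%, against 7.13% of all genes, so the share in the family was close to that of the array as a whole. Lower in runners at that level were Cx3cr1, Cxcr4 and Cxcl9 (3.92% of all genes), and higher was Cxcl17 (3.21% of all genes). In all, 32 of 54 genes were lower and 22 higher, and the median difference was -0.028 against 0.00091 over all genes.

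Receptors lay lower more often than ligands. Of the 17 signalling receptors 13 were lower and 4 higher, with a median difference of -0.093, and of the 35 ligands 18 were lower and 17 higher, with a median of -0.0064. The difference between the 2 classes was not tested. Centring each array on its median moved every difference up by 0.023, so that 12 receptors and 15 ligands were lower, and Ccr9, Ccl1, Ccl19 and Cxcl1 had the opposite sign. Differences ran from -0.37 for Ccr3, the receptor of eosinophils, to 0.24 for Ccl2, the monocyte attractant, and 4 genes differed by 1.2-fold or more. The 95% interval of the difference, taken gene by gene, lay within 0.5 on either side of 0 for 49 of the 54 genes and within 0.3 for 30, and no interval reached beyond 0.75.

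**Figure D1:**
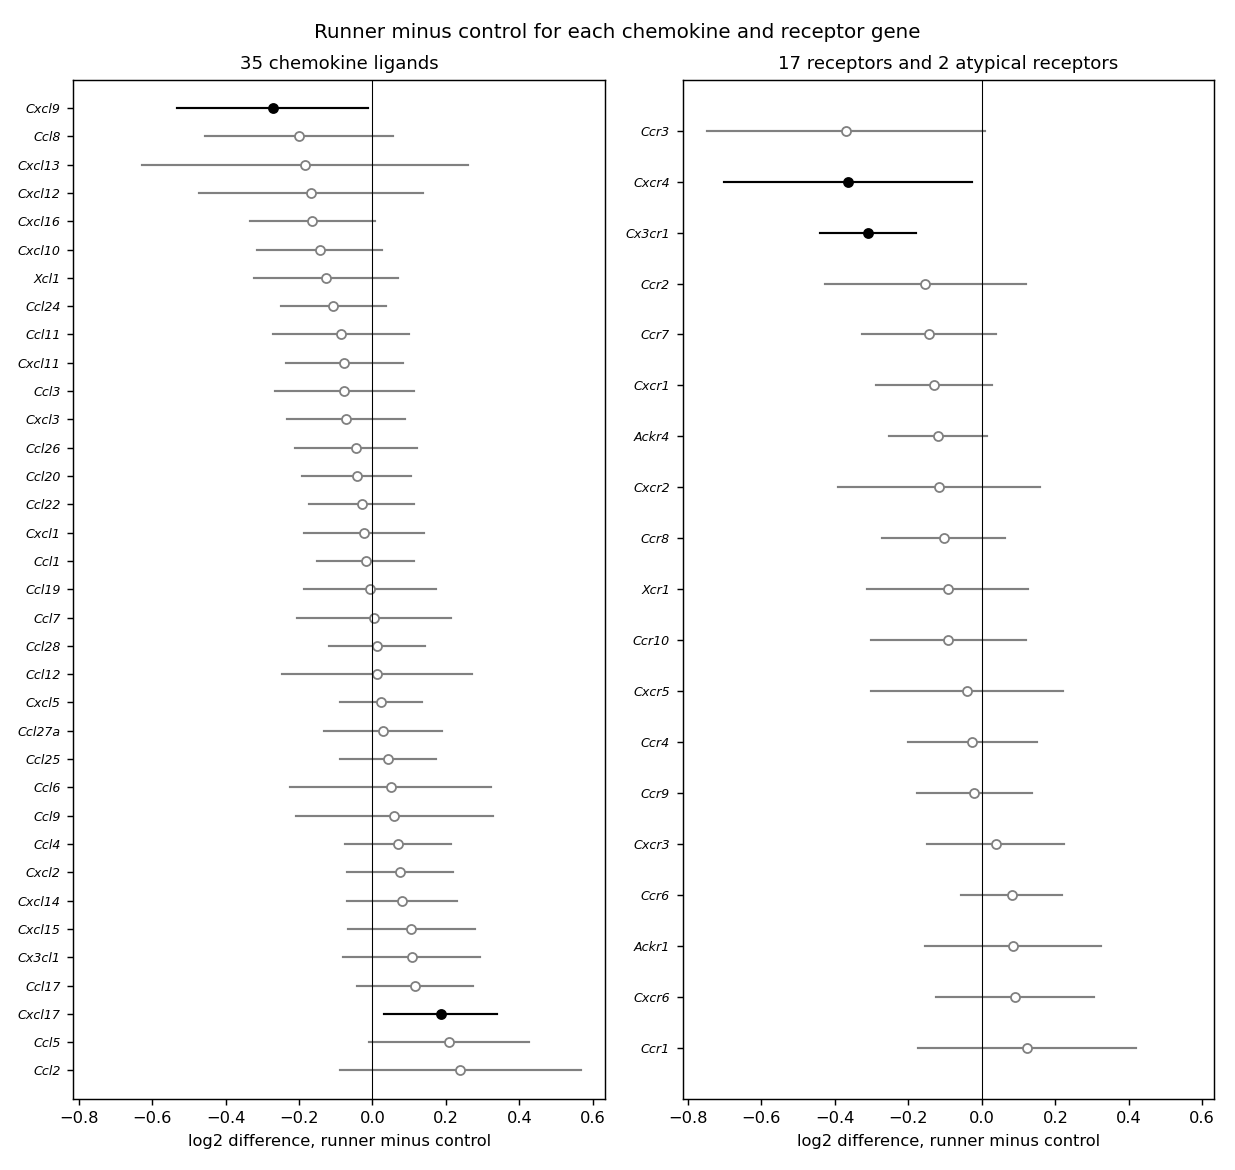
Log2 difference, runner minus control, for 35 ligands (left) and 19 receptors (right), as a point with its 95% interval in limma (n = 5 arrays per group). Filled black points are the 4 genes at an unadjusted p under 0.05, of which Cx3cr1, Cxcr4 and Cxcl9 lie below 0 and Cxcl17 above it.

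Cx3cr1 was the member with the smallest p and the only one whose groups did not overlap. It encodes the receptor of fractalkine and is carried by microglia, monocytes and tissue macrophages. Log2 expression of Cx3cr1 was 5.76, 5.76, 5.69, 5.57 and 5.73 in runners 1 to 5. In controls 1 to 5 it was 6.10, 5.94, 5.96, 5.94 and 6.11. Every runner lay below every control, by a gap close to the range within a group. Controls averaged 6.01 ± 0.088 and runners 5.70 ± 0.078 (SD, n = 5 each). The difference was thus -0.31 ± 0.061 (SE), 1.24-fold lower (limma unadjusted p = 0.000218, adjusted p = 0.279). Of all genes 0.548% had every runner below every control.

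Macrophage genes were lower in runners 2 to 5 as well, and so were genes of the cochlea itself. Of 14 macrophage and microglia markers, all measured, 13 were lower in runners, 5 of them at an unadjusted p under 0.05 (3.92% of all genes) and 0 at an adjusted p under 0.05. The mean log2 level of these 14 genes lay between 6.79 and 6.97 in controls, between 6.64 and 6.67 in runners 2 to 5 and at 7.04 in runner 1. Runner 1 thus had the highest macrophage mean of the 10 arrays, while its Cx3cr1 level of 5.76 was below that of all controls. P2ry12, a purinergic receptor gene of microglia, also had every runner below every control (-0.24 ± 0.064 SE). Stria and spiral ligament markers were lower in 7 of 7, 4 of them at an unadjusted p under 0.05 and 0 at an adjusted p under 0.05 in limma. Their mean was 6.97 to 7.11 in controls, 6.53 to 6.90 in runners 2 to 5 and 7.16 in runner 1. Hair cell markers were also lower in 7 of 7, 2 of them at an unadjusted p under 0.05 and 0 at an adjusted p under 0.05. Their mean was 5.09 to 5.27 in controls, 4.83 to 5.08 in runners 2 to 5 and 5.28 in runner 1. Brain markers were mixed. Of 6 such genes 5 were measured, with 3 higher and 2 lower in runners. At an unadjusted p under 0.05 there was 1 higher (3.21% of all genes), and 0 at an adjusted p under 0.05. The brain mean was 7.55 to 7.80 in controls, 7.73 to 7.96 in runners 2 to 5 and 7.63 in runner 1. The marker lists here and below were chosen with earlier results of these data known, so their counts are descriptions and not tests. The part of macrophage number in the Cx3cr1 difference was not tested. On this log2 scale no marker has a level of 0.

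The ligand Cx3cl1, fractalkine, which neurons and endothelium make as a membrane protein, did not follow its receptor. Its log2 level was 6.21, 6.67, 6.16, 6.42 and 6.39 in runners 1 to 5, and 6.27, 6.33, 6.19, 6.22 and 6.30 in controls 1 to 5. Runner 2 was the highest array and runner 3 the lowest, so the groups overlapped fully. The difference was 0.11 ± 0.086 (SE), with a 95% interval from -0.079 to 0.29.

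The 250 bases before the start of Cx3cr1 are shown because it had the smallest p of the family. They hold no match to the kappaB motif described further on. The sequence is from the RefSeq annotation of GRCm38.p6, read 5′ to 3′ on the gene's strand.
Cx3cr1 (chr9:120068297-120068546, minus strand): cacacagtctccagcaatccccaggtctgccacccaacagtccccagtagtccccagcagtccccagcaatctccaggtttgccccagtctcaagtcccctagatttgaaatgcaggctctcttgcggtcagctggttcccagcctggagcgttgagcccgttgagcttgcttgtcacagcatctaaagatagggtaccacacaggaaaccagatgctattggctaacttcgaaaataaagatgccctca

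Cxcr4 and its ligand Cxcl12 keep blood cell precursors and B cells in bone marrow, and Cxcl12 is made there by stromal cells. Log2 expression of Cxcr4 was 8.88, 8.64, 8.05, 8.26 and 7.997 in runners 1 to 5, and 8.53, 8.94, 8.60, 8.83 and 8.76 in controls 1 to 5. Runners 3, 4 and 5 lay below all controls, while runners 1 and 2 lay among them. Controls averaged 8.73 ± 0.17 and runners 8.36 ± 0.38 (SD, n = 5 each), which is -0.36 ± 0.16 (SE) on the log2 scale, 1.29-fold lower (limma unadjusted p = 0.0367, adjusted p = 0.674). Without runner 1 the difference of Cxcr4 was -0.49 ± 0.13 (SE; limma adjusted p = 0.0989), and without runner 5 it was -0.27.

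The arrays fell in nearly the same order for Cxcl12. Its log2 level was 8.68, 8.40, 8.02, 8.04 and 7.92 in runners 1 to 5, and 8.13, 8.58, 8.23, 8.55 and 8.40 in controls 1 to 5. Runner 1 was the highest of the 10 arrays, and runners 3, 4 and 5 were the 3 lowest. The difference was -0.17 ± 0.14 (SE; 95% interval from -0.47 to 0.14), and without runner 1 it was -0.28 ± 0.11 (SE; limma adjusted p = 0.271).

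Across the 10 arrays Cxcl12 and Cxcr4 had a Pearson correlation of 0.944 (permutation p = 2e-05, adjusted p = 0.0002 over 10 ligand and receptor pairs) and a Spearman correlation of 0.976 (permutation p = 4e-05, adjusted p = 0.0004). Without the 2 arrays farthest from the median of Cxcl12, runners 1 and 5, Pearson's r was 0.933. With each group centred on its own mean it was 0.972. A group of 5 arrays is too small for a correlation of its own. The permutation test asks only whether the 2 genes vary together over the arrays. Correlations of either gene with genes outside the listed pairs were not tested, so the value cannot be called particular to this pair. B lineage markers were lower beside this pair. Of 13 such genes 11 were measured and all 11 were lower in runners, 10 at an unadjusted p under 0.05 (3.92% of all genes) and 0 at an adjusted p under 0.05. Their mean log2 level lay between 6.37 and 6.75 in controls and between 5.85 and 6.34 in runners, with runner 1 the highest runner. Of 10 marrow stroma and osteoblast markers 9 were measured and 8 were lower, 6 of them at an unadjusted p under 0.05 (3.92% of all genes). Bglap and Bglap2, osteocalcin genes, passed an adjusted p under 0.05 in limma, the only 2 of all genes to do so (0.00672%). Lepr differed by -0.11 ± 0.12 and Kitl, the 1 higher, by 0.045 ± 0.049 (SE). Means of the 9 ran from 7.66 to 7.87 in controls and from 7.20 to 7.57 in runners. These lists too were chosen with earlier results of these data known, so their counts are no independent support for the pair. The part of marrow carried with the tissue was not tested.

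**Figure D2:**
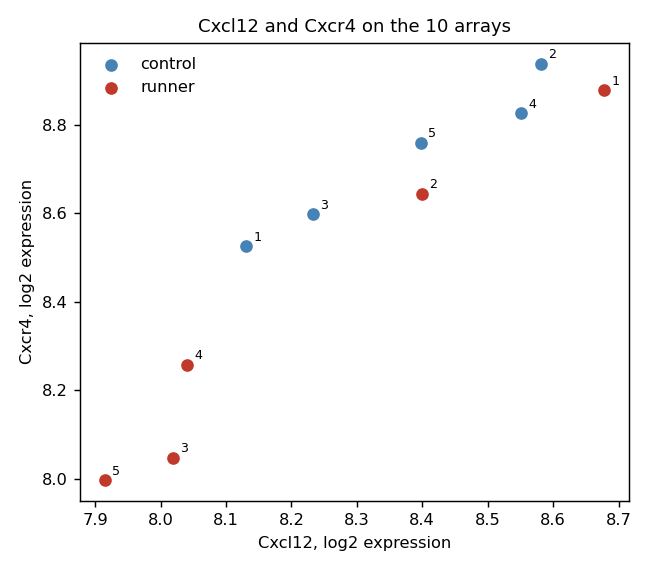
Log2 expression of Cxcr4 against Cxcl12 on the 10 arrays, with controls in blue and runners in red and the replicate number beside each point. The arrays lie close to 1 line (Pearson r = 0.944), with runners 3, 4 and 5 at its lower end and runner 1 and control 2 at its upper end.

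Ackr3, an atypical receptor that clears Cxcl12, is not counted among the 54 because its probe set also carries the old symbol Cxcr7. Tested among all annotated probe sets, its log2 level was 5.58, 5.19, 5.33, 5.15 and 5.30 in runners 1 to 5, and 5.69, 5.55, 5.51, 5.49 and 5.61 in controls 1 to 5. Runners 2 to 5 lay below all controls and runner 1 lay among them. The difference was -0.26 ± 0.080 (SE; limma unadjusted p = 0.00687, adjusted p = 0.597). Ackr2, which clears inflammatory CC ligands and was set aside in the same way for its old symbol Ccbp2, differed by 0.040 ± 0.060 (SE).

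The 250 bases before the starts of Cxcl12 and Cxcr4 are shown because the pair correlated across arrays. Capitals mark the GC box, GGGCGG on either strand, a motif of the factor Sp1 that is common in promoters active in many cell types. Cxcl12 had 5 matches in 4 stretches, since 2 of them overlap, and Cxcr4 had 3. Of all 32851 promoter windows of 300 bases from RefSeq, which reach 50 bases past the start, 35.7% held a GC box. Of the 44 windows found for 40 family members the share was 20.5%. A match is a description of the letters and not a binding site.
Cxcl12 (chr6:117168285-117168534, plus strand): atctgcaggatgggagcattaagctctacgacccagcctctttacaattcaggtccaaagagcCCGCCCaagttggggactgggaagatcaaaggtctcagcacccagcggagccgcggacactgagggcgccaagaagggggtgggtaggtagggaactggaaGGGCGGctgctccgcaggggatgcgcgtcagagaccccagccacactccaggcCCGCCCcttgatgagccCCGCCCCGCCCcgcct
Cxcr4 (chr1:128592300-128592549, minus strand): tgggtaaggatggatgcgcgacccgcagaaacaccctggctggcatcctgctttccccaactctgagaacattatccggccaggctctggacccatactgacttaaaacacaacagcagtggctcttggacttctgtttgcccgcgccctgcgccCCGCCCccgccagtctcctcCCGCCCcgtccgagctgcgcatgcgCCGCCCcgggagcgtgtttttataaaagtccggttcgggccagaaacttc

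Other receptors of myeloid cells were lower in 4 of 5 cases, and none had groups that stayed apart. Log2 expression of Cxcr2, the receptor through which neutrophils follow Cxcl1, Cxcl2 and Cxcl5, was 8.20, 7.76, 7.78, 7.57 and 7.49 in runners 1 to 5. In controls 1 to 5 it was 7.56, 7.94, 8.004, 8.01 and 7.87. Runner 1 was the highest array, runners 4 and 5 and control 1 were low, and the difference was -0.12 ± 0.13 (SE). Ccr3 was 5.99, 5.22, 5.25, 5.40 and 4.94 in runners 1 to 5, and 5.28, 5.74, 5.84, 6.00 and 5.79 in controls 1 to 5. Runner 1 stood with the controls and control 1 with the runners, and over all 10 arrays the difference was -0.37 ± 0.17 (SE; limma unadjusted p = 0.0544, adjusted p = 0.702). Without runner 1 and control 1 together Ccr3 differed by -0.64 ± 0.097 (SE) or 1.56-fold (limma adjusted p = 0.0252). It was then the 1 gene of the family past the threshold, where 1.43% of all genes were. That alternative was known from earlier results of these data, and Ccr3 is named because of its value. The arrays left out are the ones that lay across the groups for Ccr3, so this adjusted p cannot serve as a test of it.

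Ccr2, which brings monocytes out of marrow and toward Ccl2, had levels of 5.54, 5.14, 5.16, 5.24 and 5.27 in runners 1 to 5, and 5.07, 5.35, 5.55, 5.84 and 5.31 in controls 1 to 5. Control 1 was the lowest array and control 4 the highest, and the difference was -0.15 ± 0.13 (SE). Cxcr1, a receptor related to Cxcr2, differed by -0.13 ± 0.072 (SE), with runner 1 the lowest array (4.05) and control 1 the highest (4.41). Ccr1, which binds Ccl3 and Ccl5 on myeloid cells, differed by 0.12 ± 0.14 (SE), and its direction turned without runner 1 and control 1 together. Of 11 neutrophil genes, all measured, 10 were lower in runners, 2 of these at an unadjusted p under 0.05 (3.92% of all genes). At an adjusted p under 0.05 there were 0 of these 11 genes. Their mean log2 level lay between 9.07 and 9.49 in controls, with control 1 the lowest, between 9.03 and 9.11 in runners 2 to 5 and at 9.58 in runner 1. Monocyte markers were lower in 4 of 4, with means from 6.88 to 7.41 in controls, from 6.83 to 7.03 in runners 2 to 5 and at 7.34 in runner 1. The part of these cells was not tested.

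**Figure D3:**
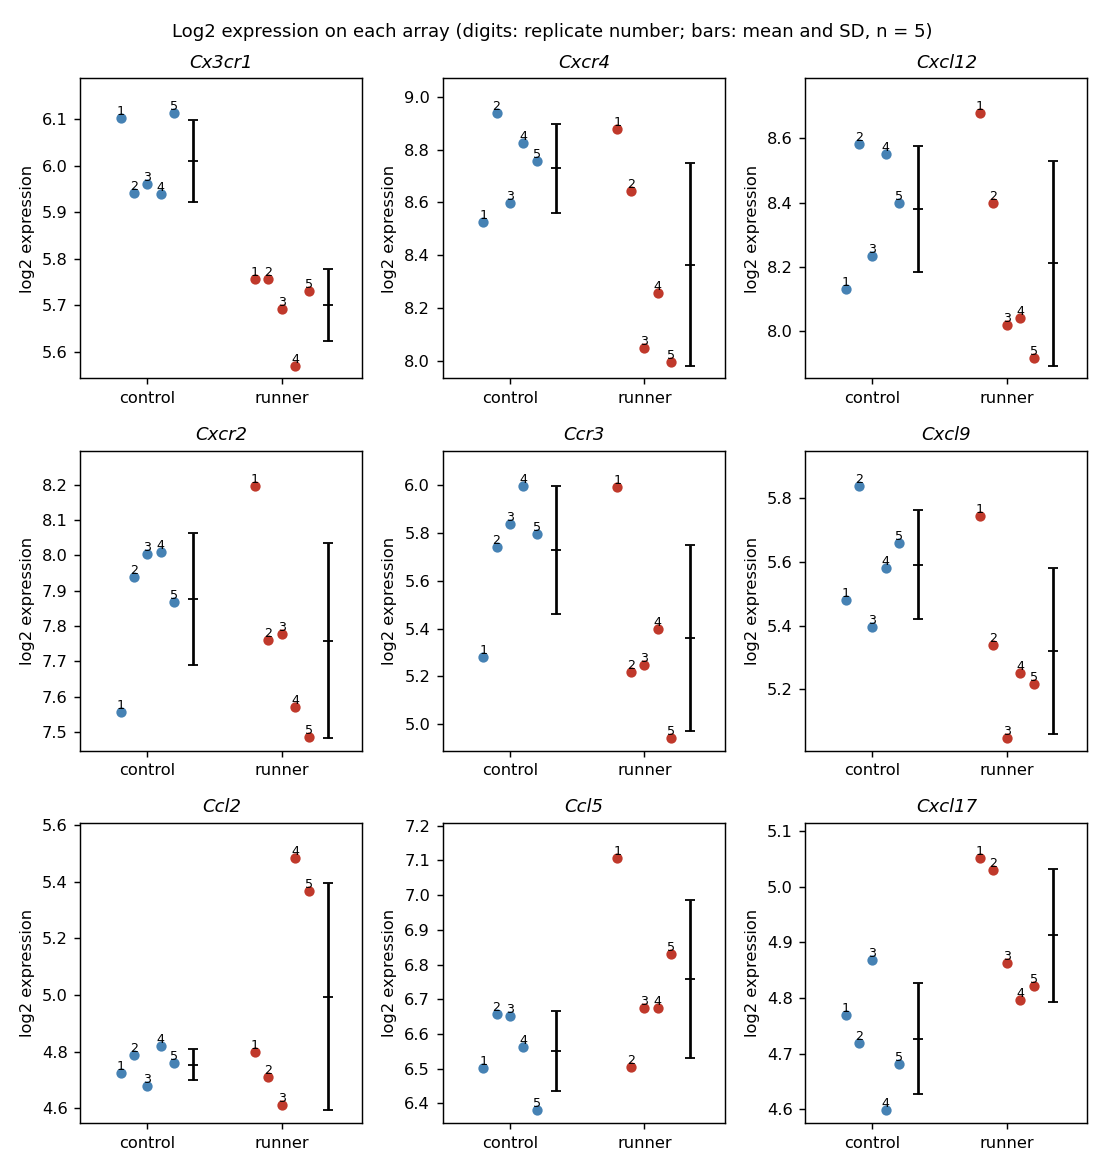
Log2 expression of 9 family members on each array, with the replicate number at each point and the mean and SD (n = 5) as a bar beside each group. Cx3cr1 separates the groups, while for Cxcr4, Cxcl12, Cxcr2, Ccr3 and Cxcl9 runner 1 lies among or above the controls. For Ccl2, runners 4 and 5 lie above the other 8 arrays.

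Among ligands of monocytes Ccl2 varied most within runners. It was 4.80, 4.71, 4.61, 5.48 and 5.37 in runners 1 to 5, and 4.73, 4.79, 4.68, 4.82 and 4.76 in controls 1 to 5. Runners 4 and 5 lay above all other arrays, and runners 1 to 3 lay at the level of controls. The SD was 0.40 in runners and 0.056 in controls, and the difference was 0.24 ± 0.15 (SE; 95% interval from -0.088 to 0.57). Without runner 4 it was 0.12 and without runner 3 it was 0.33. The related monocyte attractants Ccl7, Ccl8 and Ccl12 differed by 0.0033 ± 0.097, -0.20 ± 0.12 and 0.012 ± 0.12 (SE).

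The inflammatory ligands that act on Ccr1 did not move as a group. Ccl5, made by T cells and platelets among others, was 7.11, 6.50, 6.67, 6.67 and 6.83 in runners 1 to 5, and 6.50, 6.66, 6.65, 6.56 and 6.38 in controls 1 to 5. Runners 1, 3, 4 and 5 lay above all controls and runner 2 among them. The difference was 0.21 ± 0.10 (SE; limma unadjusted p = 0.0607, adjusted p = 0.704). Of 11 measured T and NK cell markers 8 were higher, 1 at an unadjusted p under 0.05 (3.21% of all genes). The mean of the 11 was 5.23 in runner 1 and between 4.96 and 5.03 in runners 2 to 5, against 4.88 to 5.10 in controls. Ccl3 and Ccl4, both made by activated macrophages, differed by -0.076 ± 0.087 and 0.069 ± 0.066 (SE). Ccl6 and Ccl9, which are CC ligands of mouse myeloid cells, were highest in runner 1, at 6.79 and 6.63. Their differences were 0.050 ± 0.13 and 0.059 ± 0.12 (SE), and that of Ccl6 turned to -0.069 without runner 1.

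Neutrophil attractants were close to their level in controls. Cxcl1 lay between 4.35 and 4.66 in runners and between 4.33 and 4.61 in controls (-0.023 ± 0.075 SE). Cxcl2 differed by 0.075 ± 0.067, Cxcl3 by -0.072 ± 0.074 and Cxcl5 by 0.023 ± 0.051 (SE). The 95% intervals of these 4 differences lay between -0.23 and 0.22. Cxcl15, known from mouse lung, differed by 0.11 ± 0.080 (SE).

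Ligands induced by interferon that act on Cxcr3 of T and NK cells were lower in 3 of 3. Cxcl9 was 5.74, 5.34, 5.05, 5.25 and 5.22 in runners 1 to 5, and 5.48, 5.84, 5.39, 5.58 and 5.66 in controls 1 to 5. Runners 2 to 5 lay below all controls, as for 2 of the 54 genes and 3.33% of all genes, and runner 1 was second only to control 2. The other of the 2 was Cx3cr1, and for 0 of the 54 genes (2.49% of all genes) runners 2 to 5 lay above all controls. Controls averaged 5.59 ± 0.17 and runners 5.32 ± 0.26 (SD, n = 5 each). Their difference of -0.27 ± 0.12 (SE) is 1.21-fold (limma unadjusted p = 0.0411, adjusted p = 0.678). Without runner 1 the difference of Cxcl9 was -0.38 ± 0.092 (SE; limma adjusted p = 0.0862). Cxcl10 differed by -0.14 ± 0.079 and Cxcl11 by -0.077 ± 0.074 (SE), and the receptor Cxcr3 by 0.037 ± 0.086 (SE). Cxcl10 was 3.86 in runner 5, above all controls, and between 3.44 and 3.53 in the other runners, below all controls.

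Promoters of 1 neutrophil attractant and 2 of the interferon-induced ligands are shown because these genes are textbook targets of NF-kappaB. Capitals mark the kappaB motif, searched on both strands as GGGA, any 4 bases and CC. It was found in 43.2% of the 44 windows of the family and in 20.7% of all promoter windows. The 17 genes that held it had a median difference of -0.029, 13 of them lower in runners and 1 at an unadjusted p under 0.05. The 23 genes that had a window without it had a median of 0.012, with 11 lower and 2 at an unadjusted p under 0.05. Cxcl1 held 3 matches in 2 stretches, since 1 stretch matches on both strands, and Cxcl10 held 2 and Cxcl9 held 1. The interferon response motif, GAAA and GAAA with any 2 bases between, was found on either strand for Ccl19, Cxcl10 and Cxcl14 (6.82% of windows of the family, 3.44% of all).
Cxcl1 (chr5:90890995-90891244, plus strand): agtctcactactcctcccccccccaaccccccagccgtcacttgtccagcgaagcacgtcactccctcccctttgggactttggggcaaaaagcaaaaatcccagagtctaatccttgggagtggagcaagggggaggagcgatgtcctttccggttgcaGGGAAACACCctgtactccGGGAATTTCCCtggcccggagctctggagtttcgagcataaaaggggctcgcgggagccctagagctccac
Cxcl9 (chr5:92328080-92328329, minus strand): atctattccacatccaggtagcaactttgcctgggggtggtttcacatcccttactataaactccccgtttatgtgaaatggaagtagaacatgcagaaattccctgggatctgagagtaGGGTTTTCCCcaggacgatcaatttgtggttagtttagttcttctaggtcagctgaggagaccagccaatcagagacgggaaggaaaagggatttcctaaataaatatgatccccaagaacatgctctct
Cxcl10 (chr5:92348890-92349139, minus strand): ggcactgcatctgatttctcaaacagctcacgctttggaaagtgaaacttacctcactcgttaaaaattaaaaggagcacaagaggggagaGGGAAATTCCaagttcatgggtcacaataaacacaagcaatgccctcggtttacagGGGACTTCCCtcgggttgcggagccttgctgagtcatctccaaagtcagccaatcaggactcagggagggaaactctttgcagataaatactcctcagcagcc

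Genes of lymphoid homing were lower in 4 of 4, and none was at an unadjusted p under 0.05. Ccr7, which leads dendritic and T cells to lymph nodes, was 6.65, 6.77, 6.36, 6.55 and 6.39 in runners 1 to 5, and 6.55, 6.74, 6.67, 6.65 and 6.82 in controls 1 to 5. Runners 3 and 5 were the 2 lowest arrays, and the difference was -0.14 ± 0.085 (SE). Its ligand Ccl19 differed by -0.0064 ± 0.083 (SE), and was at 0.017 with arrays centred or quantile-normalized again. Cxcl13, which draws B cells into follicles, varied from 4.56 to 5.91 in controls and from 4.53 to 5.24 in runners (-0.18 ± 0.20 SE), and its receptor Cxcr5 differed by -0.040 ± 0.12 (SE). Control 4 was the highest array for Cxcl13, and without it the difference was 0.0016. Cxcl13 and Cxcr5 had a Pearson correlation of 0.676 over the 10 arrays (permutation p = 0.0269, adjusted p = 0.135) and a Spearman correlation of 0.818 (permutation p = 0.00567, adjusted p = 0.0284). Without runner 3 and control 4 Pearson's r was 0.752.

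The second ligand of Ccr7, Ccl21, is encoded by near-identical copies and was measured only by probe sets that name several genes. The 2 probe sets for Ccl21a and Gm1987 differed by -0.14 ± 0.14 and -0.045 ± 0.14 (SE), and which copy they reported cannot be told. Ackr4, which takes up Ccl19, Ccl21 and Ccl25, differed by -0.12 ± 0.061 (SE; limma unadjusted p = 0.0754). In the other 8 ligand and receptor pairs tested for correlation across arrays, Pearson's r lay between -0.298 and 0.427 (lowest permutation p = 0.215, adjusted p = 0.605).

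Ligands and receptors of T cells and of epithelial surfaces held the 1 gene higher at an unadjusted p under 0.05. Cxcl17, a chemokine of mucosal epithelium, was 5.05, 5.03, 4.86, 4.80 and 4.82 in runners 1 to 5, and 4.77, 4.72, 4.87, 4.60 and 4.68 in controls 1 to 5. Runners 1 and 2 lay above all controls, control 3 reached the level of runner 3, and the difference was 0.19 ± 0.071 (SE) or 1.14-fold (limma unadjusted p = 0.0218, adjusted p = 0.623). It ran from 0.15 to 0.22 when arrays were left out one at a time. Cxcl16, a membrane ligand of macrophages, differed by -0.16 ± 0.078 (SE; limma unadjusted p = 0.0570), and its receptor Cxcr6, carried by T and NK cells, by 0.090 ± 0.099 (SE). Ccl25 and Ccr9, which direct T cells to thymus and gut, differed by 0.042 ± 0.061 and -0.020 ± 0.072 (SE). Ccl27a and Ccl28, epithelial ligands of Ccr10, differed by 0.029 ± 0.075 and 0.012 ± 0.060 (SE), and Ccr10 by -0.091 ± 0.098 (SE).

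Further members of these groups had small differences. Ccl17 and Ccl22, which share the receptor Ccr4, differed by 0.12 ± 0.072 and -0.029 ± 0.066 (SE), and Ccr4 by -0.026 ± 0.081 (SE). Ccl20 and its receptor Ccr6 differed by -0.043 ± 0.069 and 0.081 ± 0.063 (SE), and Ccl1 and its receptor Ccr8 by -0.018 ± 0.061 and -0.10 ± 0.077 (SE). Xcl1, made by NK and T cells, and its receptor Xcr1, carried by a class of dendritic cells, differed by -0.13 ± 0.090 and -0.093 ± 0.10 (SE). The eosinophil attractants Ccl11 and Ccl24 and the gene Ccl26 differed by -0.085 ± 0.085, -0.11 ± 0.066 and -0.045 ± 0.077 (SE). None of these genes was at an unadjusted p under 0.05 in limma.

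Cxcl14, a ligand made by many epithelial and stromal cells, differed little. Its log2 level was 7.70, 7.57, 7.65, 7.72 and 7.91 in runners 1 to 5, and 7.53, 7.72, 7.67, 7.67 and 7.55 in controls 1 to 5. Runner 5 was the highest array, the groups overlapped, and the 95% interval of the difference ran from -0.070 to 0.23. Ackr1, which binds inflammatory chemokines on red cells and venules, was 7.75, 8.43, 8.05, 8.33 and 8.03 in runners 1 to 5, and 8.06, 7.96, 7.99, 7.99 and 8.17 in controls 1 to 5. Runners 2 and 4 lay above all controls and runner 1 below them, and the difference was 0.084 ± 0.11 (SE). All 4 erythroid markers lay lower in runners. In limma 1 had an unadjusted p under 0.05 (3.92% of all genes) and 0 an adjusted p under 0.05. Means of the 4 ran from 8.08 to 8.44 in controls and from 7.91 to 8.09 in runners 2 to 5. In runner 1 the mean was 8.35. The 7 endothelial markers were lower in 7 of 7, none at an unadjusted p under 0.05 in limma, with means from 6.53 to 6.76 in controls and from 6.44 to 6.69 in runners.

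Runner 1 stood apart from the other runners, over the family and also over the marker lists of macrophages, neutrophils, stria and hair cells given above. It was the highest of the 5 runners for 27 of 54 genes, and for 33.9% of all genes, and the highest of all 10 arrays for 14 (25.9%, against 18.8% of all genes). Its median distance from the mean of the other runners was 0.13 over the family and 0.050 over all genes. The SD was larger in runners than in controls for 39 of 54 genes, with medians of 0.16 and 0.11, against 0.13 and 0.098 over all genes. Without runner 1, 9 genes of the family were lower and 0 higher at an unadjusted p under 0.05, where 8.59% of all genes were lower and 5.87% higher. The 9 were Cx3cr1, Cxcl9, Ccr3, Cxcr4, Cxcl12, Cxcl16, Xcl1, Ackr4 and Cxcr2, and their smallest adjusted p was 0.0550, for Cx3cr1. The family's median difference was then -0.065 against -0.0082 over all genes. Without runner 1 and control 1 together 11 were lower, or 20.4%, and 0 higher (9.07% and 6.41% of all genes).

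**Figure D4:**
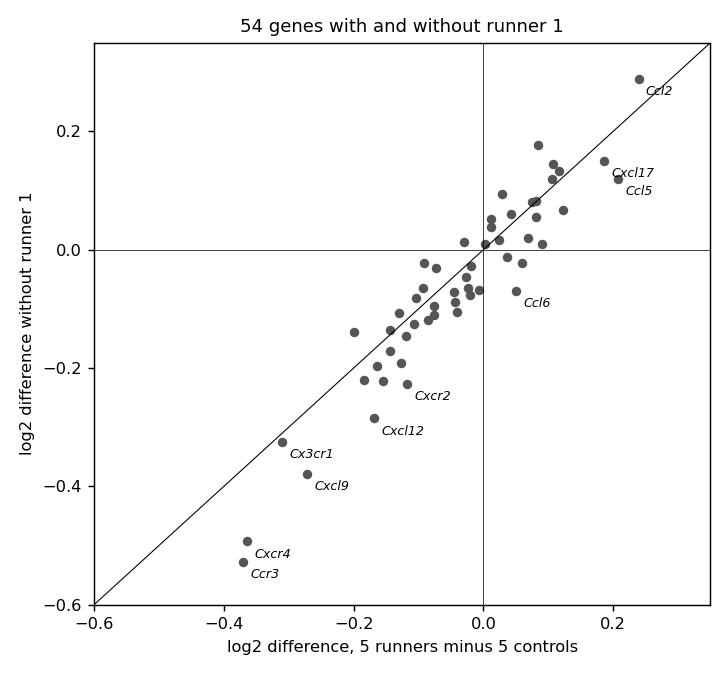
Log2 difference of each of the 54 genes without runner 1 (vertical) against that with all 10 arrays (horizontal); the diagonal marks equal values. Cxcr4, Ccr3, Cxcl12, Cxcr2 and Cxcl9 lie below the diagonal, Cx3cr1 lies close to it, and Ccl6 changes sign.

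**Figure D5:**
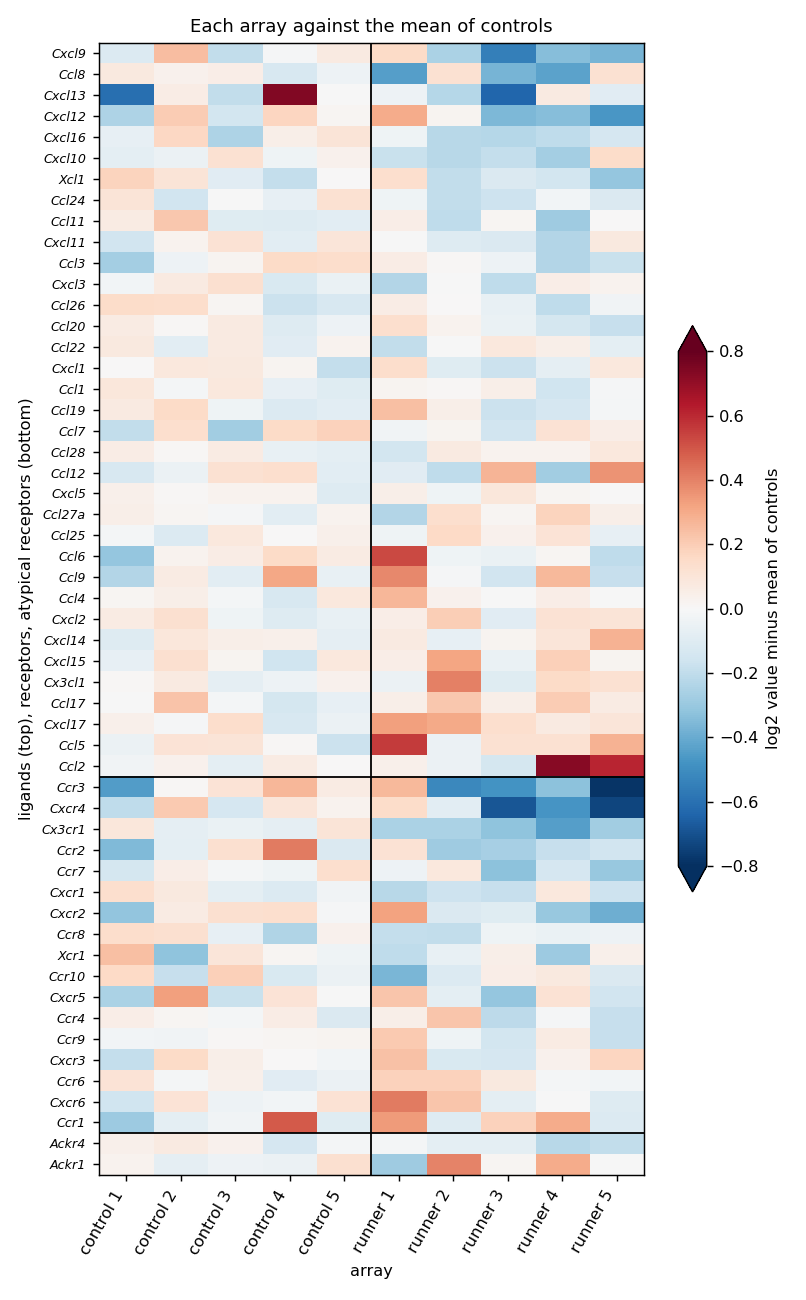
Log2 value of each gene on each array minus the mean of the 5 controls, with ligands above, receptors below and the atypical receptors last, each ordered by the difference between groups; colours saturate at 0.8 on either side. Runner 1 differs from runners 2 to 5 for Cxcr4, Ccr3 and Cxcl12, Cx3cr1 is lower in all 5 runners, and Ccl2 is high in runners 4 and 5.

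Platelet chemokines that carry older symbols were lower in all runners. Ppbp and Pf4 encode Cxcl7 and Cxcl4, which megakaryocytes make and platelets release, and their symbols lie outside the rule that chose the 54 genes. Ppbp lay between 9.91 and 10.08 in runners and between 10.13 and 10.52 in controls. Every runner lay below every control, and Ppbp differed by -0.39 ± 0.076 (SE), 1.31-fold (limma unadjusted p = 0.000217, adjusted p = 0.279). Pf4 was 8.58, 8.31, 8.44, 8.40 and 8.58 in runners 1 to 5, and 8.66, 8.90, 8.93, 8.80 and 8.59 in controls 1 to 5. Its groups also stayed apart, though control 5 exceeded the highest runners by little, and Pf4 differed by -0.31 ± 0.080 (SE), 1.24-fold (limma unadjusted p = 0.00179, adjusted p = 0.510). Neither passed the test, and 0.548% of all genes had every runner below every control. Other megakaryocyte and platelet markers were lower too. Of 7 such genes 5 were measured, and all 5 lay lower in runners (each with an unadjusted p under 0.05, and 0 with an adjusted p under 0.05), with means from 7.44 to 7.87 in controls and from 7.12 to 7.46 in runners. At that unadjusted level 3.92% of all genes were lower. The part of platelet or megakaryocyte number was not tested.

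Other genes that bind, cut or resemble chemokines were tested as a list of 12 with Ppbp and Pf4. Of 11 measured, 5 were lower and 6 higher, with a median difference of 0.014. At an unadjusted p under 0.05 there were 3 lower (3.92% of all genes). The third was Dpp4, a peptidase that cuts Cxcl12 and other chemokines, at 6.27, 5.89, 5.86, 5.85 and 5.87 in runners 1 to 5 and between 6.11 and 6.45 in controls. Runners 2 to 5 lay below all controls and runner 1 among them (-0.35 ± 0.095 SE; limma adjusted p = 0.536).

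Genes that carry the signal of chemokine receptors inside the cell, or that end it, were listed together. Of a list of 32, 27 were measured and 17 were lower, with a median difference of -0.11. At an unadjusted p under 0.05 there were 4 lower (3.92% of all genes) and 1 higher (3.21% of all genes). At an adjusted p under 0.05 there were 0. Lower were Rgs18 (-0.37 ± 0.12 SE) and Rgs2 (-0.27 ± 0.12), which shorten G protein signals, Pik3cg, the PI3 kinase that G protein-coupled receptors activate in leukocytes (-0.30 ± 0.11), and Vav1, an exchange factor for Rac in blood cells (-0.24 ± 0.10). Higher was Rgs16, another inhibitor of G protein signals (0.36 ± 0.14). Rgs16 was 6.81, 6.87, 7.55, 7.39 and 7.35 in runners 1 to 5 and between 6.66 and 7.03 in controls, so that runners 3 to 5 lay above all controls and runners 1 and 2 among them.

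Genes of the pathways that control inflammatory chemokines were lower in 16 of 19 measured, of a list of 21, with a median difference of -0.065. The list held cytokines, receptors, an adaptor and transcription regulators. It also held Nfkbia (0.19 ± 0.10 SE) and Tnfaip3 (-0.088 ± 0.065), which inhibit NF-kappaB, so the count is not one of inducers alone. At an unadjusted p under 0.05 there were 4 lower (3.92% of all genes) and 0 higher (3.21% of all genes). At an adjusted p under 0.05 there were 0. The 4 were the cytokine genes Il1a (-0.28 ± 0.097 SE), Tnf (-0.18 ± 0.067) and Ltb (-0.23 ± 0.094), and Tlr2, a receptor of bacterial lipoproteins (-0.21 ± 0.089). The mean of the 19 genes lay between 5.65 and 5.77 in controls, between 5.55 and 5.63 in runners 2 to 5 and at 5.81 in runner 1.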

How the data were processed

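Powdered inner ear tissue gave total RNA, which was biotin-labelled with Affymetrix reagents (WT PLUS), per the labels' protocols. Each sample has 1 array. The deposited values are log2 expression by probe set. The submitters' processing notes name RMA (background correction, quantile normalization, probe summary) and Partek, with no version. Chip type, build and filters: not given in the sources used here. RMA understates fold changes of dim genes, and quantile normalization hides a shift shared by most genes. Precision is limited by having 5 arrays in a group.

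Of 39295 probe sets, the platform annotation gave 30130 a single symbol, 2146 several symbols and 7019 no symbol. Symbols of 827 were updated through Entrez identifiers to RefSeq names (GRCm38.p6). For 294 genes with several probe sets the brightest on average was used, leaving 29766 genes. Of 75 probe sets that name a chemokine or receptor, 21 with several symbols (mostly Ccl19, Ccl21 and Ccl27 copies) were set aside. Groups came from sample titles. The 2 groups of 5 were compared over all genes with limma 3.58.1 in R 4.3.3 (lmFit, eBayes, two-sided, Benjamini-Hochberg, threshold adjusted p under 0.05). Intervals use the moderated standard error at 95% confidence and are not adjusted. Correlations used permutation tests with 100000 resamples. Plots come from matplotlib 3.10.9 (Python 3.11.15).

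Named genes were members at an unadjusted p under 0.05, the 10 of highest mean and listed ligand and receptor pairs, with all other members given by value, and of each further list those at an unadjusted p under 0.05. The members and lists were chosen with earlier results of these data known. Same-numbered arrays of the groups were not paired: correlations of their deviations from group means ran from -0.250 to 0.277. On simulated data with these means and spreads the fit recovered 77.0% of 100 genes changed by 0.5 log2 and 100% of 100 changed by 1, with 5 false calls among 29766 genes. Every difference in the family was smaller than 0.5, the largest being -0.37 for Ccr3. Recovery at sizes that small was not simulated. In the real fit only 2 genes were called, Bglap (-0.85) and Bglap2 (-0.95). The B lineage gene Fcrla, at -0.71, was not (limma adjusted p = 0.141). The simulated shares are thus no measure of what the real fit would call. Alternatives were a filter on dim genes, other moderation, normalization, centring, array weights, probe set rules, a replicate block and arrays left out.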

Additional observations from a re-analysis of the deposited data

Results flagged for a closer look

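In 108 groups of 5 arrays (54 genes in each of 2 conditions), 7 held an array whose gap to its neighbour was large against the range of its group, where chance flags about 1 in 20, or 5.4. Runner 1 was high for Ccl4 (3.93, next 3.72) and low for Ccl28 (3.95, next 4.13). Runner 4 was high for Cxcr1 (4.36, next 4.11) and low for Ccl1 (3.63, next 3.78). Runner 5 was high for Cxcl10 (3.86, next 3.53). Control 1 was low for Ccl6 (5.95, next 6.29) and control 5 was low for Cxcl5 (3.99, next 4.10).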

How the results depend on the processing

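The count of 0 genes past an adjusted p under 0.05 in limma (4 at an unadjusted p under 0.05) was 0 under every alternative run except without runner 1 and control 1 together, where it was 1. The count of 4 at an unadjusted p under 0.05 was 2 without moderation of the variance and 10 with array weights (8 lower). It was between 2 and 9 when arrays were left out in turn, with 2 without control 5 and 9 without runner 1, and 11 without runner 1 and control 1 together. The family's median difference of -0.028 lay between -0.065 and 0.011 over all alternatives, and was above 0 only with dim genes left out, which kept 20 members. Centring each array on its median moved the median of all genes to 0.024 and that of the family to -0.0044. With the replicate block the counts were 0 and 4 and no call changed. The block left Cx3cr1 at an adjusted p of 0.570, the range over its alternatives being 0.0550 to 0.716, and its difference lay between -0.33 and -0.28 in all of them.

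Differences near 0 changed sign. With array centring Ccl19 was at 0.017, Ccr9 at 0.0032 and Cxcl1 at 0.00045, and Ccl19 was at 0.017 with repeated quantile normalization. With array weights Ccl6 was at -0.026. Without runner 1 and control 1 together Ccl6 was at -0.15, Ccr1 at -0.0051, Cxcr3 at -0.059 and Cxcr6 at -0.031. When arrays were left out in turn the ranges were -0.068 to 0.035 for Ccl19, -0.0093 to 0.094 for Ccl27a, -0.069 to 0.11 for Ccl6, -0.077 to 0.021 for Ccr9, -0.071 to 0.015 for Cxcl1, -0.33 to 0.0016 for Cxcl13, -0.0029 to 0.038 for Cxcl5, -0.012 to 0.079 for Cxcr3 and -0.11 to 0.042 for Cxcr5. The cause was not tested.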
